A study of Mus musculus with 14 samples.

Results

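The genes described here are 40 genes of mitosis and of the G2 and M phases, chosen by name from textbook functions. Earlier results of these data were known when these genes were chosen. A probe set with 1 gene symbol was found for 39 of them, and all 39 passed the filter on dim genes, which kept 10916 of 18193 genes. Ccnb1, which encodes cyclin B1, was not analysed here. RNA was measured on 14 Affymetrix mouse arrays of Th1 rep cells, which are OT-II CD4+CD62Lhi T cells from mice aged 6 to 10 weeks that were differentiated with IL-12 and anti-IL-4 and stimulated repeatedly with antigen and irradiated antigen-presenting cells. All groups shared this history and the OT-II T cell receptor transgene. Before reactivation they were held for 1.5 h in 1 µM of either Antagomir-31, which is complementary to miR-31 and blocks it, or the control oligonucleotide Antagomir-SCR. They were then reactivated with plate-bound anti-CD3 and anti-CD28 in the presence of IL-2. RNA was taken 36 h, 48 h and 72 h later, with 2, 2 and 3 arrays per treatment. Nothing states that replicates came from separate cultures, and the p-values then cover no more than the spread between arrays, which may be technical.

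The arrays of 72 h stand apart from the others. Xist, which is transcribed from the inactive X chromosome of female cells, was read at intensities of 2427 to 3208 on the 6 arrays of 72 h, against 13.3 to 15.4 (36 h) and 19.2 to 24.2 (48 h). Eif2s3y, a gene of the Y chromosome, lay between 758 and 848 at 36 h, between 764 and 881 at 48 h and between 5.17 and 5.81 at 72 h. Kdm5d and Uty, also on the Y chromosome, were split between the times in the same way. By these genes the arrays of 72 h read as female and those of 36 h and 48 h as male, so the cells came from different animals, whose sex the labels do not give. Time and donor animals cannot be told apart in any comparison of 72 h with an earlier time. Within each time the treatments did not differ in this respect. The arrays were not brought to 1 common distribution either, since the median log2 intensity of the tested genes lay between 7.36 and 7.41 on the arrays of 36 h and 48 h and between 7.70 and 7.75 on those of 72 h. Treatments were therefore compared on the deposited intensities, and times on log2 intensities minus each array's median over the tested genes. Cd3d, Cd3g and the Th1 cytokine gene Ifng were bright at every time, and the marker lists of other cell types are given after the results. Other T cell and Th1 markers were dim, with group means of 155 to 271 for Cd4, 144 to 278 for Il12rb2 and 50 to 65 for Cxcr3. The macrophage marker Csf1r had group means of 66 to 74.

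Entry into mitosis depends on Cdk1 bound to A- and B-type cyclins and activated by the Cdc25 phosphatases. Polo and Aurora kinases and the chromosomal passenger complex then drive centrosome separation, spindle assembly and the attachment of kinetochores to microtubules, while the kinases Ttk, Bub1 and Bub1b hold back the anaphase-promoting complex and its coactivator Cdc20 until attachment is complete. Most of these genes are transcribed periodically, repressed by the DREAM complex in resting cells and activated by B-MYB and FOXM1 in G2, so in a lymphocyte population their messages mark cycling cells. In bulk samples, fewer cycling cells and less RNA per cell cannot be told apart. Genes that are transcribed together can also move together on an array. Counts of such genes, given below beside shares of all genes tested, are therefore not counts of independent observations.

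The microRNA that Antagomir-31 is directed against is shown because the treatment comparisons turn on it. Its mature sequence in RefSeq, at chr4:88910614-88910635 on the minus strand of GRCm38.p6, reads as follows, with the seed (bases 2 to 8) in capitals. MiR-31 itself was not read from these arrays. Cdk1 was the only one of the 40 genes in the study's list of putative miR-31 targets.
mmu-miR-31-5p: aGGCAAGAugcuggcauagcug

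The genes were well above the dim end of the arrays. Their mean log2 intensities ran from 6.30 for Cdc25c to 11.32 for Cks2, a Cdk-binding subunit, with a median of 8.87. Relative to the median of the tested genes, the median of the 39 genes on an array was 1.20 (log2) on both Antagomir-SCR arrays of 36 h, 1.35 on both of 48 h and 1.56 to 1.58 on the 3 of 72 h. The Antagomir-31 arrays gave 1.16 to 1.19, 1.13 to 1.18 and 1.55 to 1.62 at the same times. On this relative scale the treatments did not overlap at 36 h and 48 h and overlapped at 72 h. On the deposited scale, on which treatments are compared below, the medians of 36 h overlapped, at 8.582 and 8.598 with Antagomir-SCR and 8.598 and 8.551 with Antagomir-31, and those of 48 h did not, at 8.72 and 8.73 against 8.52 and 8.57. All of these are medians of levels, which follow the genes in the middle of the list, and not medians of changes. The median of the single genes' effects at 48 h was -0.11. From 36 h to 48 h with Antagomir-SCR, the median of their changes was -0.0030 to 0.032 with 1 array left out.

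**Figure D1:**
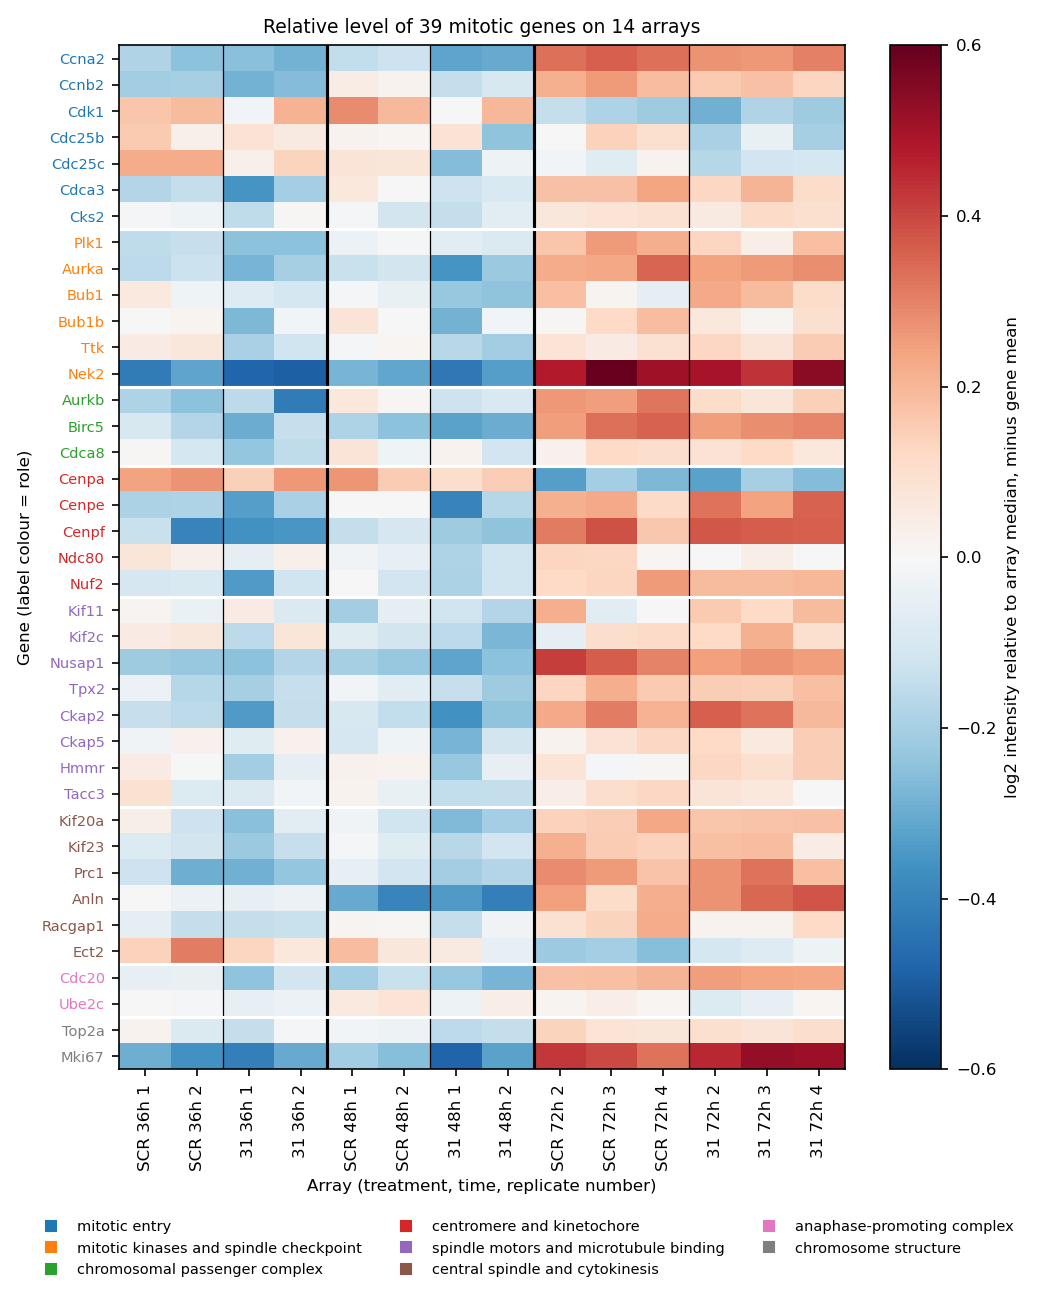
Heat map of 39 mitotic genes (rows, labels coloured by role) on 14 arrays (columns: treatment, time and replicate number). Colour gives the log2 intensity minus the array's median over the tested genes and minus the gene's mean, and most rows are higher at 72 h, whereas Cdk1 and Cenpa are lower there.

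At 36 h, 37 of the 39 genes were lower with Antagomir-31, by a median of -0.07 on the log2 scale, but none passed the test. Of all 10916 genes tested, 49.4% were lower and the median was 0.00. Limma called 0 genes higher and 0 lower in the whole table (0% in each direction, adjusted p under 0.05), against 585 genes, 4 of them mitotic, at an unadjusted p under 0.05. Standard errors of the 39 genes ran from 0.045 to 0.092, so a difference of the size of the median was below 2 standard errors for each of them. Every Antagomir-31 array was lower than every Antagomir-SCR array for 17 of the 39 genes, as for 13.9% of all genes tested, and higher for 0 of them, against 15.3%. Both same-numbered differences ran this way, with 36 of 39 genes lower for number 1 (median -0.12) and 25 for number 2 (median -0.02). Whether the numbers pair the arrays is not known, so the choice of these pairs may be arbitrary. Between the Antagomir-31 arrays of 36 h alone, 27 genes were higher on number 2, by a median of 0.07 on the log2 scale. The genes thus also moved together between arrays of the same treatment, and the counts of 37 and 17 genes are not as many observations of the treatment. Without Antagomir-31 replicate 1 of 36 h, 30 genes were lower and the median was -0.03.

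Ttk (Mps1), the kinase that starts the spindle checkpoint, had the smallest p of the 39 genes at 36 h. Its intensity was 191 and 196 with Antagomir-SCR and 164 and 171 with Antagomir-31 at 36 h, and 180.3 and 186 against 165 and 159.8 at 48 h. At 72 h it was 251, 242 and 249 against 253, 245 and 256. The treatments did not overlap at 36 h and 48 h and overlapped at 72 h. The log2 difference was -0.21 ± 0.048 (SE) at 36 h (adjusted p = 0.37), -0.17 ± 0.048 at 48 h (adjusted p = 0.62) and 0.03 ± 0.039 at 72 h (adjusted p = 0.78). Ttk was also the gene with the smallest p on the average of the 3 times, with a difference of -0.12 ± 0.026 (adjusted p = 0.14).

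Among the other genes with an unadjusted p under 0.05 at 36 h, Hmmr was read at 591 and 578 with Antagomir-SCR and at 502 and 551 with Antagomir-31 (-0.15 ± 0.066, adjusted p = 0.91). Cdc20 was read at 1406 and 1428 against 1254 and 1358 (-0.12 ± 0.052, adjusted p = 0.91), and Cdca8, the borealin subunit of the passenger complex, at 919 and 858 against 791 and 828 (-0.13 ± 0.061, adjusted p = 0.92). The treatments were separate for these 3 genes at 36 h. For Bub1b (BubR1), which binds Cdc20 in the checkpoint complex, Antagomir-31 replicate 1 was the lowest array at both early times, with 269 and 275 against 227 and 267 at 36 h and 280.2 and 269.9 against 222 and 267 at 48 h.

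At 48 h all 39 genes were lower with Antagomir-31, by a median of -0.11, against 54.4% of all genes tested and a median of -0.01. None was called, and limma called 0 of 10916 genes (0% in each direction), while 654 genes had an unadjusted p under 0.05, 13 of them mitotic. For 29 of the 39 genes every Antagomir-31 array was below every Antagomir-SCR array, against 19.7% of all genes tested, and for 0 every array was above, against 13.5%. Each same-numbered difference had 36 of 39 genes lower, with medians of -0.13 for number 1 and -0.08 for number 2. As at 36 h, it is not known whether the numbers pair the arrays. Between the Antagomir-31 arrays of 48 h alone, 27 genes were higher on number 2, by a median of 0.04. Here too the genes are not independent, so the counts of 39 and 29 genes are not as many observations of the treatment. With the mean of all probe sets of a gene in place of the brightest one, 36 genes were lower and the median was -0.08.

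Cenpe, a kinetochore kinesin that carries chromosomes to the spindle equator, differed most at 48 h on its brightest probe set. There it was read at 421 and 426 with Antagomir-SCR and at 324 and 379.6 with Antagomir-31, a log2 difference of -0.27 ± 0.074 (adjusted p = 0.62). The treatments did not overlap, and the gap between the Antagomir-31 arrays was wider than the gap between the treatments. At 72 h the order was the other way, with 634, 633 and 585 against 673, 636 and 679.5. That difference was 0.10 ± 0.060 (adjusted p = 0.41). The 72 h effect minus the 48 h effect was 0.37 ± 0.096 for Cenpe (adjusted p = 0.25), and it did not pass the test. A second probe set of Cenpe (mean log2 intensity 8.33) had the opposite sign at 48 h, with a difference of 0.14, and one of 0.22 at 72 h. The mean of all its probe sets differed by -0.07 at 48 h and 0.16 at 72 h.

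Ccna2, which encodes cyclin A2, was read at 881 and 909 with Antagomir-SCR and at 797 and 806 with Antagomir-31 at 48 h. The groups were separate, and the log2 difference was -0.16 ± 0.045 (adjusted p = 0.62). It was 873 and 842 against 845 and 818 at 36 h, where the treatments overlapped. At 72 h it was 1598, 1609.5 and 1579 against 1499, 1498 and 1521, again separate (log2 difference -0.08 ± 0.037, adjusted p = 0.26). A second probe set of Ccna2 (mean log2 intensity 9.70) had differences of -0.07, -0.25 and 0.05 at 36 h, 48 h and 72 h. The mean of all its probe sets differed by -0.02 at 72 h.

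The B-type cyclin Ccnb2 was read at 891 and 888 with Antagomir-SCR and at 795 and 823 with Antagomir-31 at 48 h (-0.14 ± 0.047, adjusted p = 0.71). At 72 h it was 1305, 1327 and 1260.3 against 1229, 1249.9 and 1196 (-0.08 ± 0.038, adjusted p = 0.28), and at 36 h 758 and 772 against 732 and 736. The treatments were separate at all 3 times. Cdc25c, a phosphatase that removes the inhibitory phosphates of Cdk1, was separate at all 3 times too. Its intensity was 82.7 and 83.6 against 73.5 and 78.1 at 36 h, 73.8 and 74.6 against 59.4 and 69.6 at 48 h, and between 85.6 and 91.1 against 79.2, 82.6 and 82.2 at 72 h. A dimmer probe set of Cdc25c had differences of -0.07, 0.03 and 0.06 at the 3 times. Averaged over the times, the log2 difference was -0.16 ± 0.037 for Cdc25c (adjusted p = 0.17), -0.10 ± 0.024 for Ccna2 (adjusted p = 0.20) and -0.09 ± 0.025 for Ccnb2 (adjusted p = 0.24).

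Cdk1, the kinase at the centre of mitotic entry, was read at 1378 and 1421 with Antagomir-SCR and 1235 and 1428 with Antagomir-31 at 36 h, and at 1478 and 1409 against 1231 and 1419 at 48 h. At 72 h the values were 1431, 1373 and 1347 against 1269, 1372 and 1324. The treatments overlapped at each time. Its log2 differences were -0.08 ± 0.079, -0.13 ± 0.079 and -0.07 ± 0.064, with adjusted p of 1, 0.88 and 0.64, so no rise of this putative target was seen with Antagomir-31.

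The kinases Aurka and Bub1 and the proliferation marker Mki67, which coats mitotic chromosomes, were also among the 8 genes with the smallest p at 48 h. Aurka was read at 444 and 457 with Antagomir-SCR against 387 and 424 with Antagomir-31 (-0.15 ± 0.058, adjusted p = 0.74). Bub1 was read at 597 and 591 against 523 and 518 (-0.19 ± 0.075, adjusted p = 0.75), and Mki67 at 1435 and 1406 against 1209 and 1349 (-0.15 ± 0.063, adjusted p = 0.78). The treatments were separate for each of the 3 genes at 48 h. At 72 h Bub1 was 889, 781 and 741 against 898, 879 and 820.0, and Mki67 2901, 2802 and 2669.7 against 2889, 3055 and 2992, so that the groups overlapped.

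At 72 h, 24 of 39 genes were lower with Antagomir-31 and the median was -0.02, against 53.8% and -0.01 of all genes tested. Limma called 54 genes higher (0.495%) and 66 lower (0.605%) in the whole table, and 0 of the 39. At an unadjusted p under 0.05 there were 11 of the 39, 9 of them lower and 2 higher, and 17.7% of all genes tested. Every array was lower with Antagomir-31 for 10 of them, against 14.6% of all genes, and higher for 3 (Cdc20, Cenpe and Ect2), against 9.52%. Both other probe sets of Cdc20 were lower with Antagomir-31 at 72 h, by -0.06 and -0.10, where the brightest one gave 0.03. With the mean of all probe sets, 30 genes were lower at 72 h and the median was -0.04. The sign turned for 8 genes, among them Cdc20 (-0.04), Ttk (-0.05) and Hmmr (-0.08).

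Cdc25b, the phosphatase thought to act first on Cdk1 at the centrosome, had the smallest p at 72 h. It was read at 127, 138 and 134 with Antagomir-SCR and at 108, 121 and 107 with Antagomir-31, a log2 difference of -0.24 ± 0.075 (adjusted p = 0.12). At 36 h it was 110.0 and 102 against 107 and 103, and at 48 h 98.6 and 99.6 against 105 and 83.6, with overlap at both times. Aurkb, the kinase of the chromosomal passenger complex, was 716, 703 and 737 against 631, 617 and 642 at 72 h (-0.19 ± 0.059, adjusted p = 0.13). With either Antagomir-31 array of 36 h left out, which changes only the estimate of the spread, the adjusted p was 0.0497. Its treatments were separate at 48 h, with 479 and 467 against 429 and 437, and overlapped at 36 h. Its second probe set (mean log2 intensity 8.35) gave smaller differences, of -0.05 at 72 h and -0.01 at 48 h.

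Nusap1, a microtubule-bundling protein of the spindle, was read at 1616, 1537 and 1467 against 1404, 1432 and 1401 at 72 h (-0.12 ± 0.043, adjusted p = 0.16). Plk1, the polo kinase, was read at 554, 583 and 567 against 529, 499 and 544 (-0.12 ± 0.042, adjusted p = 0.18). Both were separate at 72 h. Ect2, the exchange factor that switches on RhoA for cytokinesis, lay in the other direction at 72 h with 385, 384 and 370.0 against 407, 417 and 426 (0.13 ± 0.054, adjusted p = 0.23). So did the scaffold Anln of the contractile ring, at 354, 318 and 343 against 352, 373 and 376, with overlap (0.12 ± 0.049, adjusted p = 0.23).

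**Figure D2:**
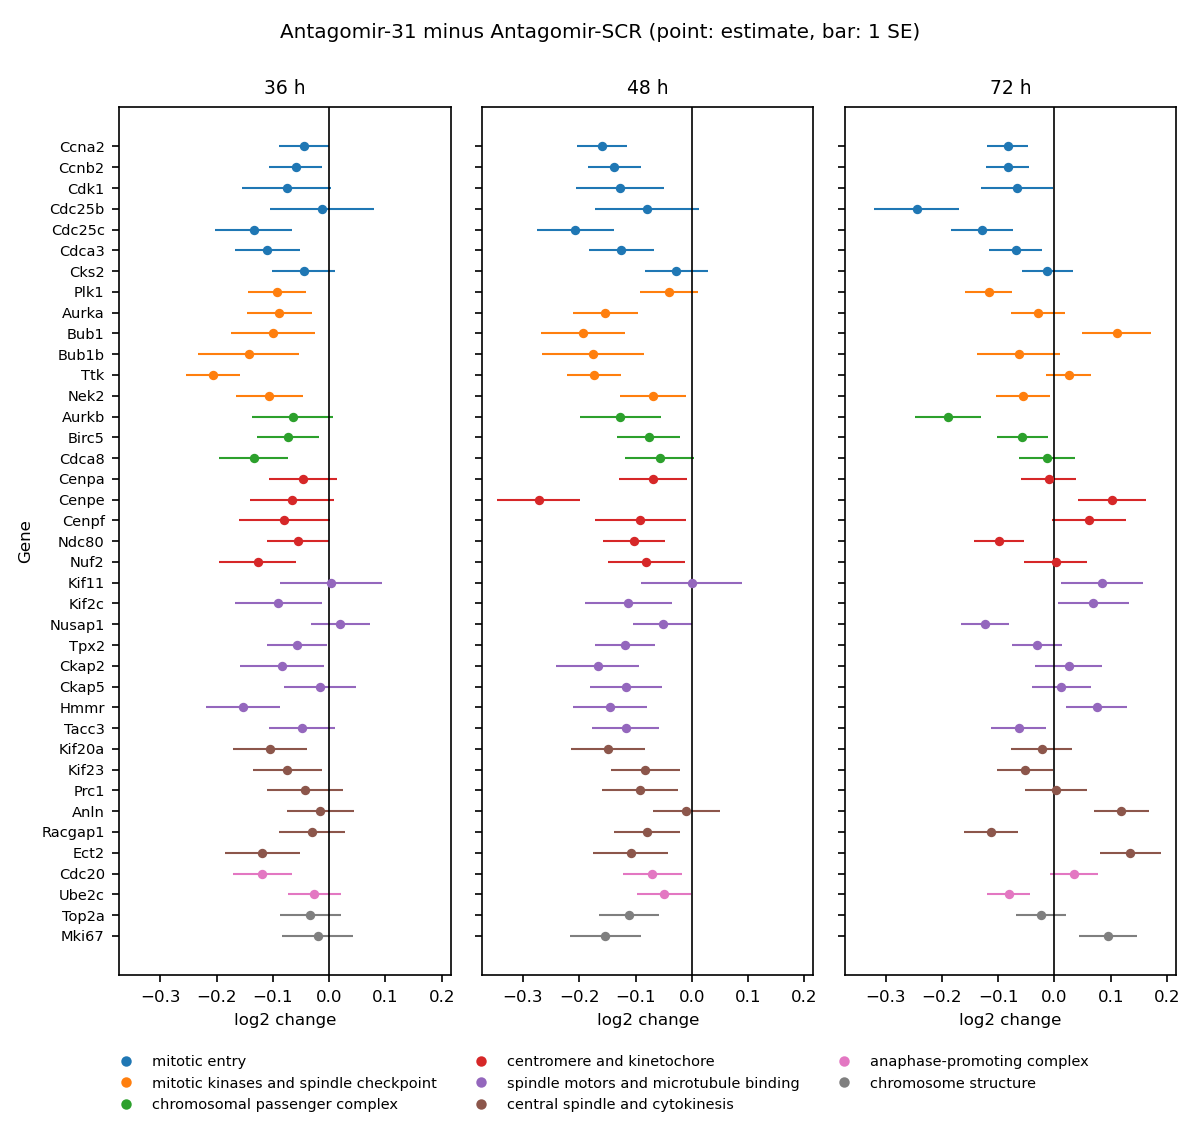
Log2 change of 39 mitotic genes (y axis) with Antagomir-31 minus Antagomir-SCR at 36 h, 48 h and 72 h (panels). Points are limma estimates coloured by role and bars are 1 SE, and the points lie left of 0 for 37 genes at 36 h, 39 at 48 h and 24 at 72 h.

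By role and on the brightest probe sets, the genes of mitotic entry (7 genes) and the chromosomal passenger complex (Aurkb, Birc5 and Cdca8) were lower with Antagomir-31 at all 3 times, with no call. With the mean of all probe sets Cdca3 was higher at 72 h (0.05) and the other genes of these groups were lower. The medians of the mitotic entry genes were -0.06, -0.13 and -0.08 at 36 h, 48 h and 72 h. The 6 mitotic kinases and checkpoint genes had medians of -0.10, -0.16 and -0.04. The 5 centromere and kinetochore genes had medians of -0.07, -0.09 and 0.00, the 8 genes of spindle motors and microtubule binding -0.05, -0.12 and 0.02, and the 6 genes of the central spindle and cytokinesis -0.06, -0.09 and -0.01. Differences of the effect between times were not called for any of the 39 genes. The 72 h effect minus the 48 h effect was above 0 for 33 of them (median 0.08, against 49.9% and 0.00 of all genes tested), and 2 genes were called higher and 2 lower in the whole table (0.0183% each). The 72 h effect minus the 36 h effect was above 0 for 29 of them (median 0.04, against 46.5% and -0.01), with 0.00916% of all genes called in each direction. On the average of the 3 times 37 genes were lower, with a median of -0.07 against -0.01 for all genes, none of the 39 was called, and 0.00916% of all genes were called in each direction.

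From 36 h to 48 h few of the mitotic genes were called. The arrays of these times have the same sex pattern, and changes are given on the scale relative to the median of the tested genes. With Antagomir-SCR, 3 of 39 genes rose (background 12.7% of all genes) and 1 fell (background 15.8%). Ccnb2 rose from 758 and 772 to 891 and 888, a relative log2 change of 0.24 ± 0.047 (adjusted p = 0.0031). Aurkb rose by 0.25 ± 0.072 (adjusted p = 0.022) and Cdca3, a trigger of Wee1 degradation, by 0.19 ± 0.059 (adjusted p = 0.028). Anln fell, from 232 and 229 to 186 and 176 (-0.33 ± 0.060, adjusted p = 0.0019). With Antagomir-31, Ccnb2, Plk1 and Cdca3 rose (background 11.1%) and Anln and Cdc25c fell (background 18.3%). Anln was 228 on both arrays of 36 h and 184 and 175 at 48 h there (-0.33 ± 0.060, adjusted p = 0.0018). Over the 39 genes, every array of 48 h was above every array of 36 h for 13 with Antagomir-SCR and 9 with Antagomir-31 (background 28.7% and 25.5%), and below for 10 and 12 (background 37.5% and 39.9%). The calls of Anln in both arms and of Ccnb2 with Antagomir-SCR were kept under all 25 alternatives. Those of Aurkb and Cdca3 with Antagomir-SCR were lost when any 1 of the 4 Antagomir-SCR arrays of these times was left out, and those of Ccnb2 and Plk1 with Antagomir-31 when any 1 of the 4 Antagomir-31 arrays was. Those of Cdca3 with Antagomir-SCR and of Ccnb2 and Plk1 with Antagomir-31 were also lost with only the arrays compared. The replicate block lost those of Cdca3 and Plk1. That of Cdc25c was lost without Antagomir-31 replicate 2 of 36 h or replicate 1 of 48 h, and that of Cdca3 with Antagomir-31 under 16 alternatives. The call of Cdc25c was also lost with quantile normalization, only the arrays compared, and the mean of all probe sets. With that mean its change was -0.02 (limma, adjusted p = 0.87).

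From 48 h to 72 h most of the genes were higher, relative to the median of the tested genes. With Antagomir-SCR, 24 of 39 rose (background 31.2%) and 3 fell (background 37.9%), with a median of 0.18 against -0.04 for all genes tested. With Antagomir-31, 32 rose (background 34.4%) and 2 fell (background 33.8%), with a median of 0.30 against 0.01. On the deposited scale, with no median subtracted, 36 rose and 0 fell with Antagomir-SCR, 37 and 0 with Antagomir-31. On that scale 66.7% of all genes rose and 14.1% fell with Antagomir-SCR, and 67.2% and 14.1% with Antagomir-31, and the median of all genes was 0.32 and 0.33. On the relative scale, every array of 72 h was above every array of 48 h for 28 genes with Antagomir-SCR (background 36.1%) and 33 with Antagomir-31 (background 39.9%), and below for 5 (background 43%) and 2 (background 39%). The arms share no arrays. Of the 39 genes, 24 rose in both and 2, Cdk1 and Cenpa, fell in both. As stated above, the arrays of 72 h come from other animals, of the other sex, than those of 48 h.

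Nek2, a kinase that separates the centrosomes, had the largest rise with Antagomir-SCR. Its intensity was 306 and 303 at 48 h and 673, 722 and 680.3 at 72 h with Antagomir-SCR, and 281 and 301 against 669, 642 and 685 with Antagomir-31. The relative log2 changes were 0.82 ± 0.055 (adjusted p = 2.9e-08) and 0.87 ± 0.055 (adjusted p = 1.8e-08). Mki67, with the intensities given above, rose by 0.61 ± 0.059 (adjusted p = 8.5e-07) with Antagomir-SCR and by 0.90 ± 0.059 (adjusted p = 2.4e-08) with Antagomir-31. The arrays of 72 h were above those of 48 h for both genes in both arms.

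Nusap1 rose from 809 and 806 to 1616, 1537 and 1467 with Antagomir-SCR, a relative log2 change of 0.57 ± 0.048 (adjusted p = 2.3e-07), and by 0.53 ± 0.048 with Antagomir-31 (adjusted p = 4.7e-07). Anln, which was lower at 48 h than at 36 h, rose by 0.54 ± 0.055 (adjusted p = 1.5e-06) and 0.70 ± 0.055 (adjusted p = 1.3e-07). Birc5, the survivin subunit of the passenger complex, was 1072 and 1043 at 48 h and 1894, 1971 and 2006 at 72 h with Antagomir-SCR, and 995 and 1009.9 against 1855, 1894 and 1893 with Antagomir-31. It rose by 0.53 ± 0.055 (adjusted p = 2.0e-06) and 0.58 ± 0.055 (adjusted p = 8.2e-07). Ccna2 rose by 0.47 ± 0.042 (adjusted p = 3.8e-07) and 0.59 ± 0.042 (adjusted p = 5.6e-08). Cdc20, the coactivator of the anaphase-promoting complex, was 1248 and 1328 against 2116, 2095 and 2125 with Antagomir-SCR and rose by 0.35 ± 0.048 (adjusted p = 2.1e-05).

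Relative to the median of the tested genes, 3 genes fell with Antagomir-SCR. Cenpa, the histone H3 variant of centromeres, was read at 1228 and 1154 at 48 h and at 1061, 1142 and 1090.5 at 72 h with Antagomir-SCR, and at 1119 and 1151 against 1047, 1141 and 1082 with Antagomir-31. Its relative log2 changes were -0.48 ± 0.058 (adjusted p = 8.3e-06) and -0.38 ± 0.058 (adjusted p = 6.2e-05). Cdk1 fell by 0.42 on the relative log2 scale (SE 0.073, adjusted p = 0.00020) and by 0.33 (SE 0.073, adjusted p = 0.0015). Ect2 was 390.1 and 365 at 48 h with Antagomir-SCR and fell by 0.35 (SE 0.060, adjusted p = 0.00018), whereas with Antagomir-31 its change was -0.07 ± 0.060 (adjusted p = 0.30). All 3 calls depend on the scale. On the deposited values the adjusted p was 0.44 and 0.99 for Cdk1, 0.065 and 0.33 for Cenpa, and 0.90 for Ect2 with Antagomir-SCR.

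**Figure D3:**
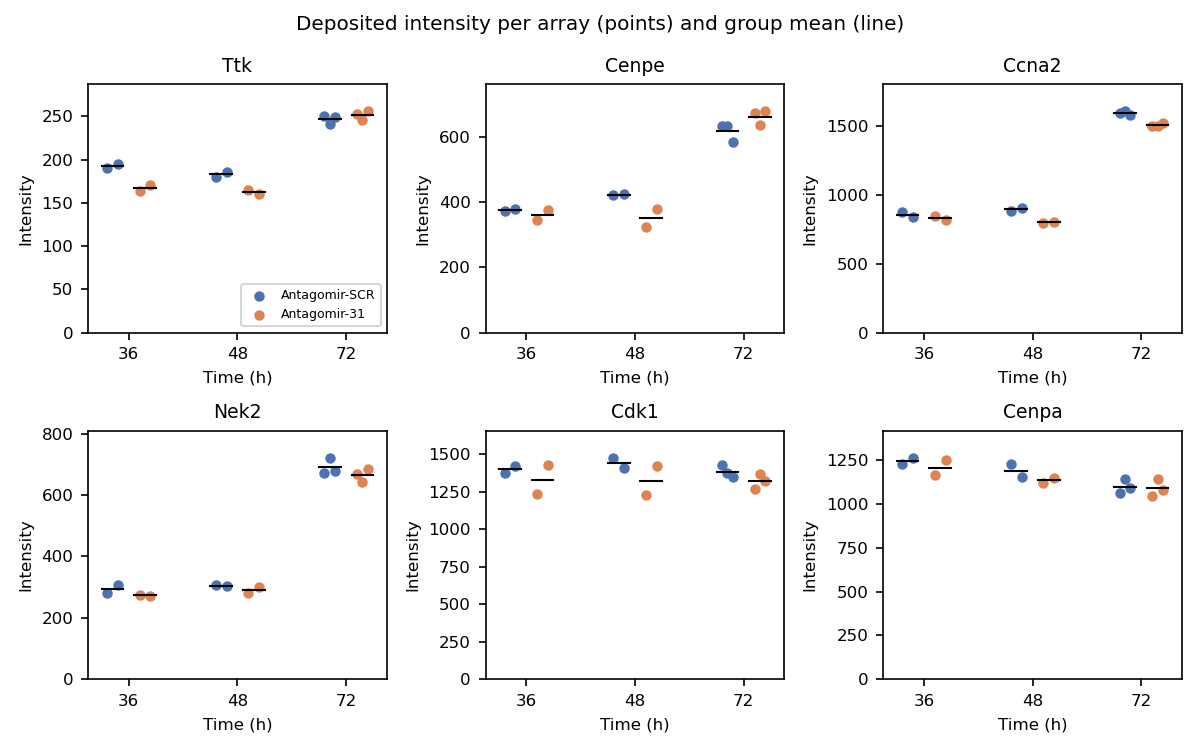
Deposited intensity (y axis, from 0) of 6 genes on each array at 36 h, 48 h and 72 h (x axis), with Antagomir-SCR in blue and Antagomir-31 in orange. Points are arrays and lines are group means, and Nek2 and Ccna2 are higher at 72 h, Cdk1 and Cenpa are not, and Ttk and Cenpe are lower with Antagomir-31 at 48 h.

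Between the arms, 8 genes rose from 48 h to 72 h with Antagomir-31 and were not called with Antagomir-SCR, namely Bub1, Bub1b, Ttk, Kif11, Kif2c, Ckap5, Hmmr and Tacc3. Bub1, for example, changed by 0.41 ± 0.065 with Antagomir-31 (adjusted p = 9.9e-05), and its change was 0.07 ± 0.065 with Antagomir-SCR (adjusted p = 0.34). The difference itself, tested as the 72 h effect minus the 48 h effect, was 0.30 ± 0.096 for Bub1 (adjusted p = 0.35), and it was not called for any of the 39 genes. With the mean of all probe sets, 5 of these 8 genes (Bub1, Ttk, Kif11, Kif2c and Hmmr) rose with Antagomir-SCR too, and 2 (Bub1b and Tacc3) were no longer called with Antagomir-31. Cdc25b, Cdc25c, Ube2c and Cdca8 were called in neither arm. Ube2c, the E2 enzyme of the anaphase-promoting complex, was among the brightest of the genes at 2188 and 2258 at 48 h and 2773, 2779.6 and 2723 at 72 h with Antagomir-SCR, a relative log2 change of -0.05 ± 0.044 (adjusted p = 0.35). Top2a, the topoisomerase that untangles chromosomes, and Cks2 were as bright and rose by 0.12 ± 0.051 (adjusted p = 0.049) and 0.14 ± 0.054 (adjusted p = 0.033), calls that were lost under 15 and 5 of 25 alternatives.

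**Figure D4:**
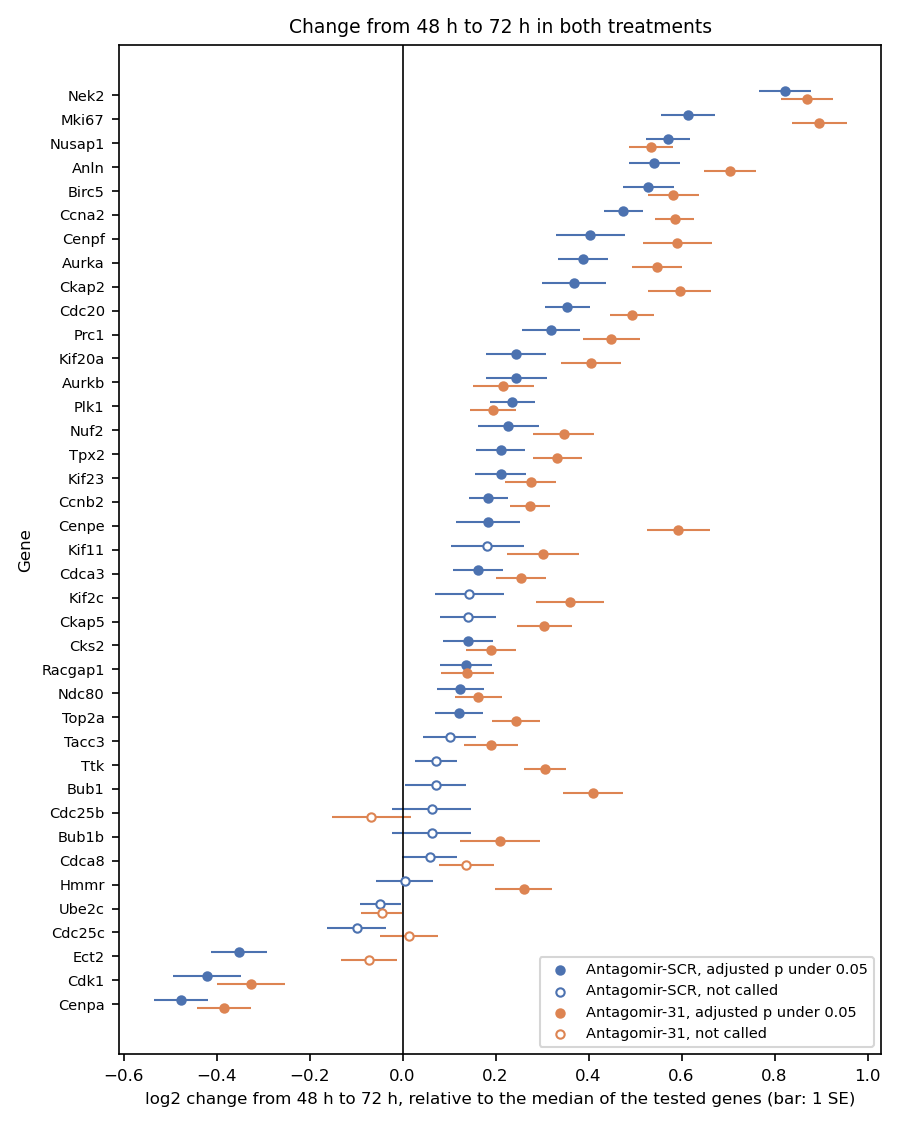
Log2 change from 48 h to 72 h relative to the median of the tested genes (x axis) of 39 mitotic genes (y axis, ordered by the change with Antagomir-SCR), with Antagomir-SCR in blue and Antagomir-31 in orange. Bars are 1 SE and filled points have an adjusted p under 0.05, which are 27 of 39 with Antagomir-SCR and 34 with Antagomir-31.

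Each of the 8 groups by role held a gene that rose from 48 h to 72 h in both arms. Of all genes tested, 31.2% rose with Antagomir-SCR and 34.4% with Antagomir-31 over this interval. With Antagomir-31 all 6 mitotic kinases and checkpoint genes and all 8 genes of spindle motors and microtubule binding rose, and with Antagomir-SCR 3 of each did. Of these calls with Antagomir-31, that of Bub1b was lost under 14 of 25 alternatives, with an adjusted p of up to 0.51, and Tacc3 had a change of -0.10 with the mean of all probe sets. Of the genes of the central spindle and cytokinesis, 5 of 6 rose in each arm, Ect2 being the other. Cenpf, a kinetochore protein, was read at 279.7 and 292 at 48 h and at 498, 516 and 443 at 72 h with Antagomir-SCR and rose by 0.40 ± 0.074 (adjusted p = 0.00032). Nuf2 and Ndc80, which bind microtubules at the kinetochore, rose by 0.23 ± 0.066 (adjusted p = 0.0081) and 0.12 ± 0.050 (adjusted p = 0.042), and the call of Ndc80 was lost under 11 of 25 alternatives. That of Nuf2 was lost with the replicate block and without Antagomir-SCR replicate 2 of 48 h. That of Racgap1, a partner of Ect2 at the central spindle, at 0.14 ± 0.057 (adjusted p = 0.046), was lost under 13.

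Prc1, which bundles the microtubules of the central spindle, was read at 323 and 313 at 48 h and at 530.4, 514 and 484 at 72 h with Antagomir-SCR, and at 295 and 302 against 515, 537 and 479 with Antagomir-31. It rose by 0.32 ± 0.062 (adjusted p = 0.00047) and 0.45 ± 0.062 (adjusted p = 2.7e-05). Kif23, a kinesin of the central spindle, rose by 0.21 ± 0.055 (adjusted p = 0.0039) and 0.28 ± 0.055 (adjusted p = 0.00060), and Kif20a, which carries the passenger complex to the midzone, by 0.24 ± 0.064 (adjusted p = 0.0043) and 0.41 ± 0.064 (adjusted p = 9.6e-05). The call of Kif20a with Antagomir-SCR was lost with the replicate block and without Antagomir-SCR replicate 2 of 48 h. Ckap2, a microtubule nucleator, rose by 0.37 ± 0.068 (adjusted p = 0.00034) and 0.60 ± 0.068 (adjusted p = 5.1e-06). For these 4 genes, every array of 72 h was above every array of 48 h in each arm.

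Hmmr, which helps to position the spindle, was called in 1 arm on its brightest probe set. It was read at 573 and 579 at 48 h and at 778, 719 and 728 at 72 h with Antagomir-SCR, a relative log2 change of 0.01 ± 0.061 (adjusted p = 0.95). With Antagomir-31 it was read at 489 and 554 against 782, 771 and 790.0, and it rose by 0.26 ± 0.061 (adjusted p = 0.0020). The deposited intensities were higher at 72 h in both arms, and the relative change differs from them by the shift of the array medians. The next 3 probe sets of Hmmr in brightness changed by 0.45, 0.59 and 1.01 with Antagomir-SCR and by 0.64, 0.74 and 0.59 with Antagomir-31. Hmmr rose in both arms with the mean of all probe sets, by 0.48 (adjusted p = 2.9e-06) and 0.50 (adjusted p = 2.2e-06).

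Because many of these genes rose from 48 h to 72 h and a few fell, their promoters are shown. RefSeq tables for GRCm38.p6 held 37 promoters, each of 250 bases before to 50 after a start, for 35 of the 40 genes. They were searched on both strands for the letters TTTGAA of the cell cycle genes homology region (CHR), to which the DREAM complex and B-MYB bind through LIN54, and for CCAAT, the box bound by NF-Y. A CHR match was present in 27 of the 37 promoters (73.0%), against 17.9% of all 32851 promoters of this length, and a CCAAT match in 30 (81.1%, against 37.4%). Both were present in 24 (64.9%, against 6.95%). Relative to the start used for each promoter, the median position was -1 for 34 CHR matches and -62 for 71 CCAAT matches. For some genes, among them Kif2c, Cdca3 and Cdc25b, that start lies inside the gene. Of the 71 CCAAT matches, 1 shared a base with a CHR match. Ect2 and Prc1 had a pair of overlapping promoters each. The letters are a description of these windows and say nothing of binding in Th1 cells.

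**Figure D5:**
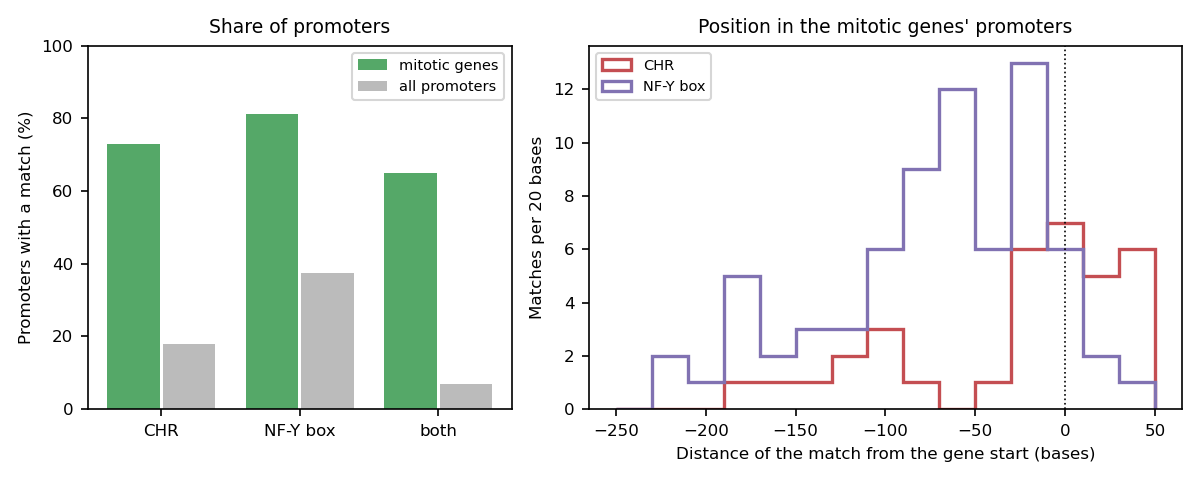
Left, the percentage of promoters of 300 bases with a CHR match, an NF-Y (CCAAT) box match or both, for the 37 promoters of the mitotic genes (green) and all 32851 promoters (grey). Right, the number of matches per 20 bases against their distance from the start used for each promoter (gene start on the axis), where CHR matches have their median at -1 and NF-Y box matches at -62.

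The 6 promoters printed below belong to 4 genes that rose from 48 h to 72 h in both arms and to both genes that fell in both. They are given 5′ to 3′ on the strand of the gene, with every CHR and CCAAT match in capitals, which on the opposite strand read TTCAAA and ATTGG. The coordinates are chr9:70421505-70421804 (minus strand) for Ccnb2, chr4:118437294-118437593 (minus) for Cdc20, chr7:135716330-135716629 (minus) for Mki67, chr1:191821223-191821522 (plus) for Nek2, chr10:69352863-69353162 (minus) for Cdk1 and chr5:30666636-30666935 (plus) for Cenpa.
Ccnb2: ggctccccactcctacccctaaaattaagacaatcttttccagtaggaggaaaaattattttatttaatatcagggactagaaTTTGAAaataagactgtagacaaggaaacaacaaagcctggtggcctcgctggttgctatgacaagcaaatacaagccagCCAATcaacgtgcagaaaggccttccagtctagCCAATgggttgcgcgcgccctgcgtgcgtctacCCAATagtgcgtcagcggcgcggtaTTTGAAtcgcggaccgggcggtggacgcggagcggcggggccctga
Cdc20: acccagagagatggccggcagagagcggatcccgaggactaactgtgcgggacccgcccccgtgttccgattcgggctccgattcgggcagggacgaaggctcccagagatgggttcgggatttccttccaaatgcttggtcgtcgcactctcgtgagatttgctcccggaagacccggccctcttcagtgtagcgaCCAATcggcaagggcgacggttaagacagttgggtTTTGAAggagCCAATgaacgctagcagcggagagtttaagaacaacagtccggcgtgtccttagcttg
Mki67: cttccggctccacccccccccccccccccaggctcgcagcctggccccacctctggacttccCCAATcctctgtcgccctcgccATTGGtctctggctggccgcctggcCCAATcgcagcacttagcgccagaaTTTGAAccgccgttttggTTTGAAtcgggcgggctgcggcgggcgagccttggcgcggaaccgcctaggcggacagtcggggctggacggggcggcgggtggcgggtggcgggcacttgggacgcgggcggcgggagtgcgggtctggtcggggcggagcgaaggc
Nek2: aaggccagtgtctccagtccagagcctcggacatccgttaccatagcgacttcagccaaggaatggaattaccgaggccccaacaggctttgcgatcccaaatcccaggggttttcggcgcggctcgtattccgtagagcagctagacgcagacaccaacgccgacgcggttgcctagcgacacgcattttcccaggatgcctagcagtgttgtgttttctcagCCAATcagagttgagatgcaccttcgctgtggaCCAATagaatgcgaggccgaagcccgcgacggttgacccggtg
Cdk1: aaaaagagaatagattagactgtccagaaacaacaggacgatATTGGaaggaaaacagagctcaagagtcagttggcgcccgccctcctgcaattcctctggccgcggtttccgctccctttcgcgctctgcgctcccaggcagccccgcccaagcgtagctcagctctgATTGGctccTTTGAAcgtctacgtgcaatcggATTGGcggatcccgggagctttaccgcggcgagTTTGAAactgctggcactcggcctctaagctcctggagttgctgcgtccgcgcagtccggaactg
Cenpa: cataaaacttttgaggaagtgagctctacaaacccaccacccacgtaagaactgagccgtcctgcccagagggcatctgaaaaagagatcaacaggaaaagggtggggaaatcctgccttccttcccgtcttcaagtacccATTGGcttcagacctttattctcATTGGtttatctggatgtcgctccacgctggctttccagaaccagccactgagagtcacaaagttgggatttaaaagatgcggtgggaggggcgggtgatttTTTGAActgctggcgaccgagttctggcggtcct

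The promoter of Ccnb2 held CCAAT matches at -87, -54 and -21 relative to the start and CHR matches at -167 and 5. Those of Cdk1 and Cenpa, which fell relative to the other genes, held both motifs as did those of Ccnb2, Cdc20 and Mki67, which rose. The promoter of Nek2, with the largest rise with Antagomir-SCR, held CCAAT matches and no CHR match, and those of Birc5 and Nusap1, which also rose, held neither. Cdk1 and Cenpa were the only genes of the list that fell in both arms, and their calls depended on the scale. Whether the motifs go with the direction of change was not tested.

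Other genes of the cell cycle, from lists of textbook members chosen with earlier results of these data known, are given for comparison. Of 66 other mitotic genes tested, 56 were lower with Antagomir-31 at 36 h (median -0.05), 59 at 48 h (median -0.07) and 36 at 72 h (median -0.02), with 0 called at each time. From 48 h to 72 h, 30 of them rose and 12 fell with Antagomir-SCR, and 38 rose and 8 fell with Antagomir-31. Of all genes tested, 31.2% rose and 37.9% fell with Antagomir-SCR, and 34.4% and 33.8% with Antagomir-31. With Antagomir-SCR, the microtubule-binding genes Psrc1 and Gtse1 and the kinesin gene Kif18b rose by 1.35, 1.34 and 1.19 (relative log2, adjusted p = 8.5e-10, 9.8e-11 and 7.7e-10). Of 48 genes of DNA replication and S phase, 38 were lower with Antagomir-31 at 36 h, 40 at 48 h (median -0.07) and 32 at 72 h. At 72 h 1 was called higher and 1 lower (background 0.495% and 0.605% of all genes). From 48 h to 72 h, 31 of them rose and 6 fell with Antagomir-SCR, and 34 rose and 4 fell with Antagomir-31.

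Of 17 subunits and regulators of the anaphase-promoting complex, 7 were lower with Antagomir-31 at 36 h (median 0.00), 14 at 48 h (median -0.04) and 12 at 72 h (median -0.06), and none was called. From 48 h to 72 h with Antagomir-SCR, 7 rose (background 31.2% of all genes) and 4 fell (background 37.9%). Among them, the coactivator Fzr1 rose by 0.79 and Anapc10 fell by 0.47. Of 23 regulators of G2 and M transcription, 16 were lower with Antagomir-31 at 48 h (median -0.03). From 48 h to 72 h, 15 of these regulators rose and 3 fell with Antagomir-SCR, against the same background. The B-MYB gene Mybl2 rose by 0.76 (adjusted p = 1.2e-06), the pocket protein genes Rb1 and Rbl2 by 1.27 and 1.47, and Lin9 of the MuvB core fell by 0.72. Of 17 tested G1 cyclins, CDK inhibitors and antiproliferative genes, 5 were lower with Antagomir-31 at 36 h (median 0.01), 6 at 48 h (median 0.03) and 12 at 72 h (median -0.04), with 0 called. At 72 h 5 of them, all lower, had an unadjusted p under 0.05. At 48 h Gadd45b, induced by stress, had a difference of 0.25 (adjusted p = 0.39) and Cdkn1a, which encodes the CDK inhibitor p21, of 0.13 (adjusted p = 0.83).

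Of the 12 reference genes, 7 were lower with Antagomir-31 at 48 h with a median of -0.02. From 48 h to 72 h with Antagomir-SCR, 6 rose (background 31.2% of all genes) and 3 fell (background 37.9%). The actin control probe sets, a sign of RNA quality, had a log2 ratio of 3′ to 5′ signal of 0.32 to 0.43 on the arrays of 36 h and 48 h and of 0.21 to 0.27 on those of 72 h. That of the Gapdh control probe sets lay between -0.046 and -0.012 at 36 h and 48 h and between -0.0052 and 0.088 at 72 h, so that 1 ratio was lower and the other higher at 72 h. These ratios moved with the 48 h to 72 h comparison, and their part in it was not tested.

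The summed intensity of 11 T cell and Th1 markers, all of which were tested, was 31008 to 31448 with Antagomir-SCR and 30774 to 30804 with Antagomir-31 at 48 h. At 72 h it was 24509 to 24985 and 23598 to 24266, and the mean of Ifng alone was 15650.4 at 48 h and 8580 at 72 h with Antagomir-SCR. Cd2 and Stat4 were also lower at 72 h with Antagomir-SCR, and the other markers of this list were higher. The sums are of deposited intensities, on which the arrays of 72 h lie higher. The 6 B cell markers measured, of which 3 were tested, summed to 121 to 123 with Antagomir-SCR and 111 to 114 with Antagomir-31 at 48 h and to 163 to 169 and 164 to 180.3 at 72 h. The 7 macrophage and monocyte markers, of which 4 were tested, summed to 219.6 to 230.3 and 213 to 229.7 at 48 h and to 245 to 252 and 252 to 261 at 72 h. The 5 dendritic cell markers, of which 2 were tested, summed to 123 to 124 and 129.7 to 130.0 at 48 h and to 153 to 162 and 147 to 159 at 72 h. The 3 CD8 T and NK cell markers, of which 1 was tested, summed to 55 to 60 and 58 to 60 at 48 h. At 72 h they summed to 82 to 84 and 79.5 to 81. The 3 erythroid markers, of which 1 was tested, summed to 81 to 88 and 82 to 84 at 48 h. At 72 h they summed to 73 to 82 and 76 to 81. At 48 h the sums of T cell and B cell markers were thus lower with Antagomir-31 and that of dendritic cell markers higher, without overlap between the treatments. Ifng is the largest part of the T cell sum, at a mean of 15650.4 against 15330 with Antagomir-31 at 48 h. Of the 11 T cell and Th1 markers, 8 were lower and 3 higher with Antagomir-31 at 48 h, and 0 were called. Cd4 was at 161 against 187 and Cd28 at 1958 against 2032. The B cell markers Cd79a, Cd79b and Ms4a1 were too dim to be tested, whereas Pax5, Cd22 and Blk were tested, as were Csf1r, Cd14, Lyz2 and Fcgr1 of macrophages and monocytes and Zbtb46 and Siglech of dendritic cells. The sums moved with the effect at 48 h, and their part in the differences of the mitotic genes was not tested.

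Of the 39 genes, 12 had 1 probe set. The others had 48 further probe sets, 31 of which were above the level of the dimmest gene tested. Of these 31, 26 had the same sign as the chosen probe set from 48 h to 72 h with Antagomir-SCR and 27 with Antagomir-31. For the effect of Antagomir-31, 20 had the same sign at 36 h, 25 at 48 h and 17 at 72 h. At 48 h the second probe set of Ccna2 had a difference of -0.25 and a dimmer one of Nek2 one of -0.22, whereas dimmer ones of Cenpf and Top2a differed by 0.21 and 0.13, against the sign of the chosen ones, as did that of Cenpe.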

How the data were processed

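RNA of 14 samples was hybridised to Affymetrix Mouse Genome 430 2.0 arrays. Per the labels and the study's methods, scanned arrays were read by the authors in GCOS and summarised by RMA in the affy package, in versions not given in the sources used here, and deposited linear intensities for 45101 probe sets. Of these, 34945 have 1 gene symbol in GEO's platform annotation, 932 several and 9160 none, and 64 are controls. The symbols were checked against RefSeq's gene table (GRCm38.p6), where 34742 probe sets were found. Each of 18193 genes was represented by its brightest probe set, and the brightest 60% of genes (mean log2 intensity of at least 4.79) were tested.

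Log2 intensities were fitted in limma 3.58.1 (R 4.3.3) with 1 model of 6 groups, and p-values were adjusted by the Benjamini-Hochberg method over all genes tested. A gene was called at an adjusted p under 0.05, and "rose" and "fell" refer to called genes. Treatments were compared within a time on the deposited values, and times on values minus each array's median. Values are given with the standard error of the fit. The number of arrays limits the precision. Any of the listed genes could be named, with array values for those of smallest p (up to 8 in a comparison), for bright members of each role and for others chosen after their values were seen. From each other list up to 4 genes of smallest p were named. The 40 genes and the other lists were chosen with earlier results of these data known. The fit was tested on simulated data. Promoter and miRNA sequences are from RefSeq (GRCm38.p6). Alternatives were the filter, the probe set rule, probe sets ending in _x_at, quantile normalization, an added intensity of 10, a trend in the prior variance, fewer arrays in the fit, a replicate block, the scale, and leaving out each array.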

Additional observations from a re-analysis of the deposited data

How the results depend on the processing

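No alternative, other than leaving out an array, changed the count of 0 mitotic genes called for the effect of Antagomir-31 at any time, on average or between times. The median effect at 48 h was -0.079 with the mean of all probe sets of a gene. The median of the 72 h effect minus the 36 h effect was 0.0059 with the mean of all probe sets and 0.069 with each array's median subtracted, and that of the 72 h effect minus the 48 h effect was 0.036 and 0.12. Over all genes, the calls at 72 h (54 higher and 66 lower) ran from 7 higher and 4 lower with only the arrays compared to 180 and 242 where the prior variance had a trend. With the mean of all probe sets, 5 mitotic genes rose and 6 fell from 36 h to 48 h with Antagomir-SCR and 6 fell with Antagomir-31, and the medians from 48 h to 72 h were 0.22 and 0.27. With quantile normalization, the median from 36 h to 48 h was 0.050 with Antagomir-SCR and 0.0077 with Antagomir-31, where 5 genes rose and 1 fell, and from 48 h to 72 h with Antagomir-SCR it was 0.26. With a mean log2 of at least 6, the medians were -0.013 from 36 h to 48 h with Antagomir-31 and 0.24 and 0.33 from 48 h to 72 h. A trend in the prior variance gave 2 genes that fell from 36 h to 48 h with Antagomir-SCR, and only the arrays compared gave 0 that rose and 1 that fell with Antagomir-31. Without median subtraction 0 genes fell from 48 h to 72 h in either arm, and the medians were 0.54 and 0.63.

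The sign of a called change of a named gene turned in 3 cases. From 48 h to 72 h Cdca3 with Antagomir-SCR came to -0.055 and Tacc3 with Antagomir-31 to -0.10 with the mean of all probe sets, and Ect2 with Antagomir-SCR to 0.0086 on the deposited scale. Values that were not called turned as well. With the mean of all probe sets, the 72 h effect minus the 36 h effect came to -0.0094 for Ttk, 0.0017 for Nusap1 and -0.018 for Hmmr, the 72 h effect minus the 48 h effect to -0.0072 for Hmmr, and the change of Cenpe from 36 h to 48 h with Antagomir-SCR to -0.045. Without probe sets ending in _x_at, that of Cdc20 came to 0.0033. Over all 39 genes, the mean of all probe sets turned the sign of 6 effects at 36 h, 3 at 48 h and 8 at 72 h. Of the values of single genes under the alternatives, 2974 kept direction and side of the threshold, 134 fell back behind it and 16 passed it.

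With 1 array left out, the lone array of a group being assumed to vary like the others, the median effect ran from -0.092 to -0.033 at 36 h, from -0.12 to -0.087 at 48 h, from -0.034 to -0.020 at 72 h and from -0.081 to -0.057 on average. At 72 h 0 to 1 genes (Aurkb) were then called. The median difference of effects ran from -0.0012 to 0.089 for 72 h minus 36 h and from 0.052 to 0.087 for 72 h minus 48 h. From 36 h to 48 h, 1 to 4 genes rose with Antagomir-SCR (median -0.0030 to 0.032), and with Antagomir-31 0 to 3 rose and 1 to 3 fell (median -0.093 to 0.014). From 48 h to 72 h, 17 to 24 rose with Antagomir-SCR (median 0.16 to 0.19), and with Antagomir-31 28 to 32 rose and 2 to 3 fell (median 0.25 to 0.32).

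Whether the replicate numbers pair the arrays is not known. The deviations of same-numbered arrays correlated by 0.05 at 36 h, -0.16 at 48 h and -0.07 to 0.05 at 72 h. With groups of 2 or 3 arrays, these correlations cannot decide whether the arrays were paired. With the replicate number as a block, 0 mitotic genes were called for the effects, 18 rose and 3 fell from 48 h to 72 h with Antagomir-SCR, 29 rose and 2 fell with Antagomir-31, and from 36 h to 48 h 2 rose and 1 fell with Antagomir-SCR, and 1 rose and 3 fell with Antagomir-31. With the numbers of 48 h crossed, chosen after seeing the data, 0 genes were called. Where a value moved, the cause was not tested. Groups of 2 or 3 arrays limit what differences could be called, and the scale of 72 h against earlier times is not known.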
